A study of Rattus norvegicus with 16 samples.

Results

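Mammary glands of female rats at postnatal day (PND) 50 were compared between offspring of dams given genistein plus vinclozolin, called the mixture here, and offspring of dams given genistein alone. There were 2 pools of RNA in each group, chosen by their titles alone, and these 4 pools make up 4 of the 16 arrays of the study. Both groups were Wistar Han rats whose mothers had been gavaged once daily from gestational day 1 until weaning at PND 21, and they differed in the vinclozolin that the mixture dams received as well. The labels state a dose of 1 mg per kg body weight per day once, for the compounds alone and in combination, and this was read as 1 mg of each in the mixture. All animals ate a purified diet free of phytoestrogens. For reference, the text also uses the pools of vinclozolin alone and of untreated controls at PND50, and the mixture and genistein pools at PND35, each with 2 pools. Every pool combined 5 RNA samples from individual glands, with 1 female taken per litter, so the spread between pools understates the spread between animals. The females are described as pubertal or cycling, and no stage of the estrous cycle is given for them.

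Vinclozolin is a dicarboximide fungicide whose breakdown products block the androgen receptor. Genistein, an isoflavone of soy, is a ligand of the estrogen receptors that prefers the beta form. In the rodent mammary gland, estrogen acts on luminal cells that carry its receptor, and these cells pass the signal to their neighbours through amphiregulin, a ligand of the epidermal growth factor receptor. Androgens restrain this growth, and hepatocyte growth factor from the stroma reaches the epithelium through the receptor Met. At PND50 the ducts of a virgin rat are still adding lobules, so epithelial, fat and connective tissue genes are all measured in 1 extract. In such bulk RNA, fewer cells of a type and less RNA per cell cannot be told apart.

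The values are log2 intensities. The 2 mixture pools at PND50 correlated at 0.9962 over all probe sets and the 2 genistein pools at 0.9959, and the pairs of the other groups lay between 0.9893 and 0.9966. Of 41 markers of the gland and of tissues beside it, 35 were named on the array, and 29 of these lay above the value used to filter out dim genes (5.661) in all 4 pools. These included every named marker of luminal cells, basal cells, milk, adipocytes and macrophages. The other 6 were markers of skeletal muscle, B cells, T cells, and epidermis and hair, and fell under that value in at least 1 of the 4 pools. Precision below is limited by the small number of arrays, and the p-values rest on the spread from pool to pool.

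Few genes separated the mixture from genistein alone. Of 11796 genes tested with limma, 3 passed a Benjamini-Hochberg adjusted p of 0.05, all higher with the mixture, which is 0.0254% of the genes. None (0%) passed as lower. The 3 genes were Slc5a8, a transporter that carries lactate, butyrate and other monocarboxylates into cells with sodium, Met, the receptor tyrosine kinase for hepatocyte growth factor, and Cytip, a protein of lymphoid and dendritic cells that binds cytohesins and reduces cell adhesion. At an unadjusted p under 0.05 there were 999 genes, 444 higher and 555 lower, where 590 would be expected with no difference at all. A change of at least 1.5-fold was measured for 36 genes in the higher direction (0.305%) and for 31 in the lower (0.263%). Both mixture pools lay above both genistein pools for 17.4% of genes and below them for 23.9%, and the log2 fold change was positive for 45% and negative for 55%, with a median of -0.0138.

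Slc5a8 had the largest of the passing differences. Its log2 intensity was 9.89 and 9.99 in mixture pools, against 8.57 and 8.48 in the genistein pools. The mixture pools were above every other pool of the study: vinclozolin alone at PND50 gave 8.92 and 8.80, and the untreated controls gave 8.51 and 8.59. The log2 fold change of mixture over genistein was 1.42 (SE 0.19, 2.67-fold), with a limma adjusted p of 0.0424. Cytip read 8.79 and 9.06 in mixture pools, against 8.18 and 7.96 in the genistein pools, and 8.29 and 8.13 with vinclozolin alone, against 8.26 and 8.20 in controls. Its log2 fold change was 0.86 (SE 0.12, 1.81-fold, limma adjusted p = 0.0424). The pools of the mixture again stood above all the others and those of the remaining PND50 groups lay close together.

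Met showed the smallest spread within groups. It read 9.60 and 9.62 in mixture pools, against 9.05 and 9.10 in the genistein pools, and 9.15 and 9.13 with vinclozolin alone, against 9.11 and 9.09 in the controls. The PND50 pools of the other groups thus lay between 9.05 and 9.15, and the mixture pools lay above them. The log2 fold change was 0.53 (SE 0.06, 1.45-fold), with a limma adjusted p of 0.0281, the smallest of the comparison. Its ligand Hgf read 8.15 and 7.97 in mixture pools, against 7.85 and 7.95 in the genistein pools, and did not pass (log2 fold change 0.16, SE 0.10, limma adjusted p = 0.686).

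**Figure D1:**
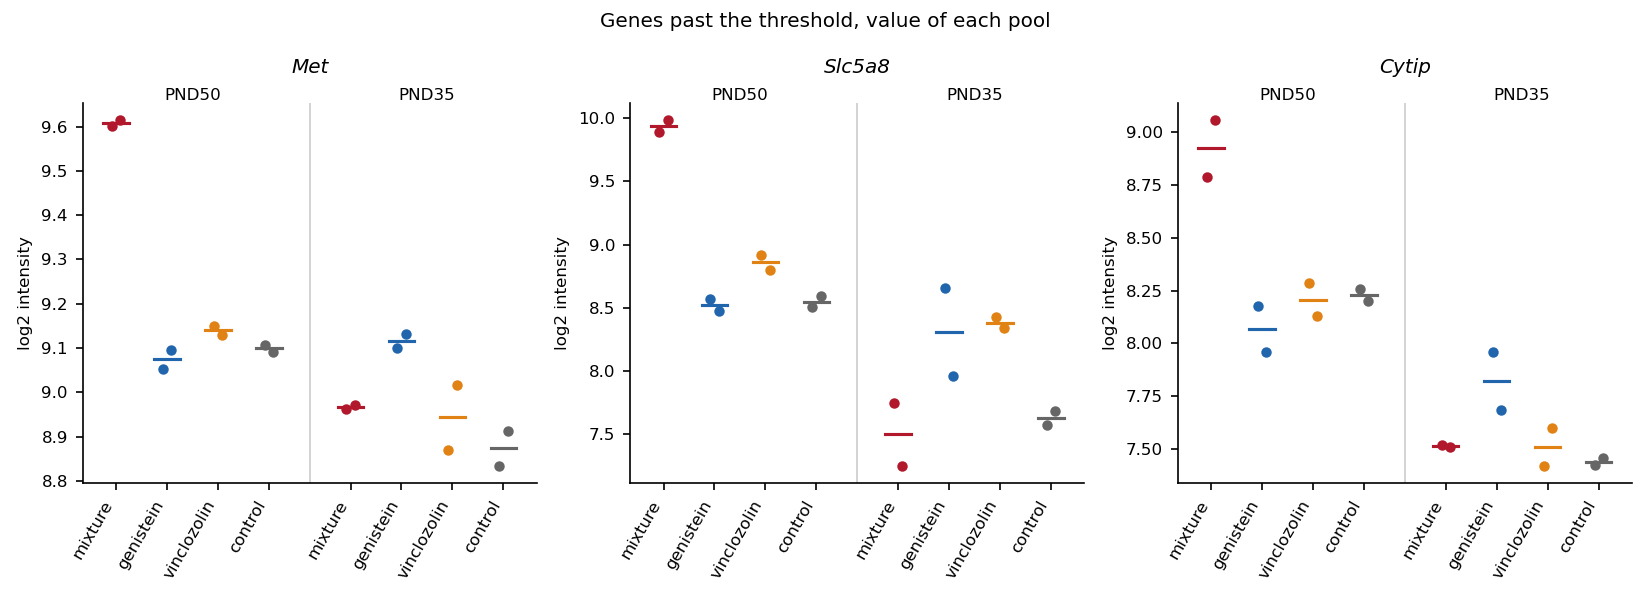
Log2 intensity of Met, Slc5a8 and Cytip in each pool (points) with the group mean (bars), for PND50 and PND35 and the groups mixture, genistein, vinclozolin and control. At PND50 the mixture pools of Slc5a8 read 9.89 and 9.99 and lie above all other pools, and at PND35 the mixture pools lie below the genistein pools for all 3 genes.

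The upstream sequences of the 3 genes that passed are shown because an androgen receptor blocker separates the groups compared, and they were read from RefSeq's rat assembly GRCr8. Each gives the 250 bases before the annotated start, 5′ to 3′ on the gene's strand. Met lies at chr4:46784496-46784745 on the plus strand, Slc5a8 at chr7:25160030-25160279 on the plus strand and Cytip at chr3:63134833-63135082 on the minus strand.
Met: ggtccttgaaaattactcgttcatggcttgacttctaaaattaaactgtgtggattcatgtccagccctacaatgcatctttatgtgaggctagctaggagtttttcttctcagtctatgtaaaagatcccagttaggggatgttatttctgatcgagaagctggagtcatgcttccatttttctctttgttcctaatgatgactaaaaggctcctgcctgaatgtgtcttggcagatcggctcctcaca
Slc5a8: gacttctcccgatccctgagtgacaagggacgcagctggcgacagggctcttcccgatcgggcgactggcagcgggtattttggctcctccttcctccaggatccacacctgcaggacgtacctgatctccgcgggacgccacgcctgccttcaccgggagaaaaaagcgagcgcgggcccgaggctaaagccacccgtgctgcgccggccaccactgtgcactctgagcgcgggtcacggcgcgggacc
Cytip: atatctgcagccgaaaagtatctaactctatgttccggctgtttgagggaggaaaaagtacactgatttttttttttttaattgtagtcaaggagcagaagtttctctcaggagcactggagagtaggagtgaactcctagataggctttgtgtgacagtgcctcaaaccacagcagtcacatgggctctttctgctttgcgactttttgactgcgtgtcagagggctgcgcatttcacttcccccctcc
The site that 1 androgen or glucocorticoid receptor monomer binds, AGAACA, searched on both strands from 250 bases before to 50 after the start, matched in none of the 3, so no base is in capitals. That motif occurs in 20.1% of the 27457 rat promoters in the same window. The full palindromic androgen response element occurs in 2 of them and the full estrogen response element in 7, neither of them in these 3 genes. An absent match says only that these letters are not in this window.

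The count of passing genes was sensitive to the pools used. No gene passed when either mixture pool or genistein pool 2 was left out, and without genistein pool 1 a single gene passed, Spt1, which is described further on and was lower. The count was 0 without any single pool of either control group or of vinclozolin at PND50, and 1 without either vinclozolin pool at PND35. Leaving out a pool of another group changes the spread but cannot change the difference between mixture and genistein. Whichever pool of that group is dropped, the fit of this contrast is the same. The 30 alternative fits thus hold repeats and are not separate checks. Across them the log2 fold changes of Slc5a8, Cytip and Met were positive, at 1.30 to 1.47, 0.72 to 0.99 and 0.51 to 0.55. Their adjusted p passed in 14 of the 30 fits for Slc5a8, 10 for Cytip and 16 for Met, and reached at most 0.879, 0.879 and 0.579.

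A further 10 genes with at least a 1.5-fold higher level and no overlap between the groups had the smallest p-values without passing. Reg3b, a secreted lectin of the mucosal defence, read 7.88 and 8.25 in mixture pools, against 6.88 and 5.98 in the genistein pools (log2 fold change 1.63, SE 0.29, 3.1-fold, limma adjusted p = 0.201). Vinclozolin alone gave 5.95 and 6.50 and the controls 6.40 and 6.06, so both mixture pools stood above the rest. Cd14, the co-receptor for bacterial lipopolysaccharide, read 11.08 and 10.99 with the mixture, against 10.55 and 10.30 with genistein (0.61, SE 0.11, limma adjusted p = 0.201). Vtcn1, which encodes the immune checkpoint ligand B7-H4, read 10.54 and 10.68, against 10.03 and 9.64 in the genistein pools (0.78, SE 0.17, limma adjusted p = 0.326). C4bpa, which inhibits complement, and the mucosal chemokine Cxcl17 had log2 fold changes of 0.70 and 0.60.

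The others of this set were Hspa4l, a heat shock protein of the Hsp110 family (0.91), Gpr37, an orphan receptor (0.81), Dynlrb2, a dynein light chain (0.70), the laminin chain Lama1 (0.64) and the peptidase Cpm (0.61). Over the 13 higher genes described so far, limma adjusted p-values ran up to 0.359. In 12 of the 13 the mixture pools were above every other PND50 pool, and in 1, Gpr37, a control pool lay between them: it read 6.90 and 7.40 in mixture pools, against 6.27 and 6.41 in the genistein pools, and 7.11 and 6.81 in controls. Standing above the genistein pools was a condition of choosing the 13. The share of all genes with mixture pools above every other PND50 pool was not counted. For Cpm vinclozolin alone was close below the mixture, with 9.034 and 9.003 in mixture pools, against 8.44 and 8.37 with genistein, and 8.96 and 8.93 with vinclozolin alone, against 8.30 and 8.37 in controls. Reg3g, a sister gene of Reg3b, was left out of the test as a dim gene, with a mean of 5.54 over the 16 pools. It read 7.46 and 7.41 in mixture pools, against 5.60 and 5.19 in the genistein pools, and 5.00 to 5.72 in the other 12 pools. The filter value is 5.661, so of the groups compared only the mixture was above it. Without the filter on dim genes it passed (limma adjusted p = 0.00208), and no fold is given against pools as dim as these. The olfactory receptor gene Or8b51 passed as well in that fit (limma adjusted p = 0.0156), but it read 3.60 and 3.67 in mixture pools, against 3.08 and 3.01 in the genistein pools, far under the filter value in both groups.

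**Figure D2:**
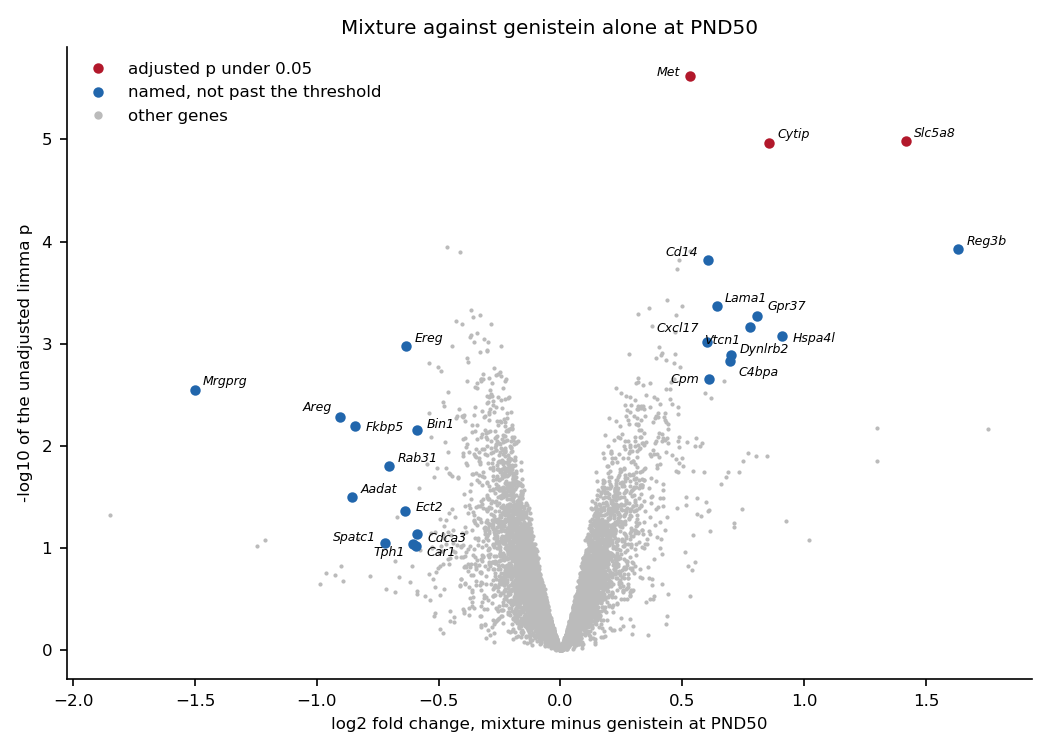
Log2 fold change of mixture over genistein at PND50 (x axis) and the minus log10 of the unadjusted limma p (y axis) for the 11796 genes. The 3 genes past an adjusted p of 0.05 are on the right, and of the 22 other named genes 10 are on the right and 12 on the left.

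On the lower side, no gene passed, and the 12 with the lowest p-values of all genes at least 1.5-fold lower and without overlap had limma adjusted p-values between 0.33 and 0.654. Mrgprg, a receptor of the Mas-related family, had the largest of these differences and a wide spread: it read 6.89 and 6.48 in mixture pools, against 7.48 and 8.90 in the genistein pools (-1.50, SE 0.40). Vinclozolin alone gave 6.45 and 6.32 and the controls 7.26 and 8.34, so pools without vinclozolin were the high ones. Fkbp5, a co-chaperone of steroid receptors that glucocorticoids and androgens induce, read 7.57 and 7.33 in mixture pools, against 8.25 and 8.35 in the genistein pools (-0.84, SE 0.25). With vinclozolin alone it read 7.84 and 8.03, against 8.31 and 8.19 in controls, so the vinclozolin pools were also under the controls there (-0.32). Aadat, an aminotransferase of the kynurenine pathway (-0.86), Spatc1 (-0.72), Rab31, a small GTPase of vesicle transport (-0.70), Tph1, which starts serotonin synthesis (-0.61), Bin1, a membrane-bending protein (-0.59), and Car1, the carbonic anhydrase of red cells (-0.59), were also in this set. Ect2 (-0.64) and Cdca3 (-0.59), which act in cell division but are not in the mitosis list described below, belonged to the set as well. Ereg and Areg, ligands of the epidermal growth factor family, complete the set. In 8 of the 12 genes both mixture pools were below every other PND50 pool. In the other 4, Mrgprg, Ereg, Aadat and Tph1, at least 1 pool of vinclozolin alone was lower than a mixture pool. Lying below the genistein pools was a condition of choosing the 12, and the share of all genes below every other PND50 pool was not counted.

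Among ligands of the gland, the epidermal growth factor family members had differences of both signs. Areg, which encodes amphiregulin, read 9.05 and 8.31 in mixture pools, against 9.46 and 9.71 in the genistein pools, 9.27 and 9.52 with vinclozolin alone and 9.61 and 9.82 in controls. Both mixture pools were the lowest of PND50, with a wide gap between them, and Areg did not pass (log2 fold change -0.90, SE 0.26, 1.87-fold lower, limma adjusted p = 0.38). Ereg, which encodes epiregulin, read 6.96 and 6.78 with the mixture, against 7.51 and 7.50 with genistein (-0.63, SE 0.15, limma adjusted p = 0.33). Vinclozolin alone gave 6.93 and 7.36, so Ereg's mixture pools overlapped with those. Nrg1, which encodes neuregulin for the receptors ErbB3 and ErbB4, read 8.44 and 8.67 in mixture pools, against 8.29 and 7.88 in the genistein pools (0.47, SE 0.16, limma adjusted p = 0.435). Tgfb3, a growth-restraining ligand, had a log2 fold change of 0.41. The 20 ligands tested of 22 listed had 8 positive and 12 negative changes with a median of -0.0457, beside -0.0138 over all genes, and none passed.

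The upstream sequence of Areg is shown because it holds, in capitals, the cAMP response element TGACGTCA, which is found in 1.91% of all promoter windows of the same length. It lies at chr14:17265642-17265891 on the minus strand in GRCr8, and the element starts 91 bases before the annotated start.
Areg: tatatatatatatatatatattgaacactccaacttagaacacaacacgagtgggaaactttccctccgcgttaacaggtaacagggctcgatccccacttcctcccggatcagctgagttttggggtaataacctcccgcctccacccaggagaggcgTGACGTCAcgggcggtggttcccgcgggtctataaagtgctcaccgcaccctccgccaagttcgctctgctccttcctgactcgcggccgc
The motif AGAACA, which was absent from the 3 genes that passed, also occurs once in Areg's window and is left in lower case. A match of letters is a description and does not show that a factor binds there.

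Of 17 hormone and growth factor receptors tested of 19 listed, 11 had positive and 6 negative log2 fold changes, with a median of 0.0573, and Met alone passed. Erbb3, the neuregulin receptor, read 9.70 and 9.63 in mixture pools, against 9.52 and 9.24 in the genistein pools (0.29, SE 0.11, limma adjusted p = 0.506). Igf1r gave 0.18 and Fgfr1 -0.19, both without overlap between the groups. Esr1, which encodes estrogen receptor alpha, read 10.56 and 10.70, against 10.26 and 10.63 with genistein, and its groups overlapped. Pgr, the progesterone receptor gene, read 9.66 and 9.59 in mixture pools, against 9.64 and 9.95, and Prlr, the prolactin receptor gene, 10.02 and 10.11, against 10.12 and 10.14, with log2 fold changes of -0.17 and -0.07.

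Targets and partners of the estrogen receptor, a list that also holds Esr1 itself, showed no common direction. There were 6 positive and 8 negative changes among 14 tested of 19 listed, with a median of -0.0167. Besides Areg, Cited1, a co-activator of estrogen receptor alpha, read 11.38 and 11.63 in mixture pools, against 11.90 and 11.90 (-0.40, SE 0.16, limma adjusted p = 0.524), and Wnt4, a progesterone target, had a log2 fold change of -0.23. Of 15 androgen and glucocorticoid receptor targets tested of 18 listed, 5 were positive and 10 negative, with a median of -0.163. For 8 of the 15 both mixture pools were below both genistein pools, which was so for 23.9% of all genes, and for 3 both were above, which was so for 17.4%. Fkbp5 and Pmepa1, an inhibitor of TGF-beta signalling, were negative (Pmepa1 -0.46), while Tmprss2 and Ndrg1, which androgens induce in human prostate cells, were positive. Tmprss2 read 8.87 and 8.93 in mixture pools, against 8.43 and 8.21 in the genistein pools (0.57, SE 0.19, limma adjusted p = 0.418). None of the targets passed.

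Most epithelial genes had higher values in the mixture pools, and none passed. Of 23 luminal epithelial genes tested of 24 listed, 22 had positive log2 fold changes, and in 20 both mixture pools were above both genistein pools, which was so for 17.4% of all genes. Their median was 0.263, beside -0.0138 over all genes. Epcam, an adhesion protein of epithelial cells, read 9.96 and 10.04 in mixture pools, against 9.56 and 9.57 in the genistein pools (0.43, SE 0.11, limma adjusted p = 0.376). Kit, a receptor of luminal progenitors, read 9.58 and 9.55, against 9.03 and 9.13 (0.49, SE 0.17), and the membrane protease Prss8 10.59 and 10.52, against 10.27 and 10.01 (0.42, SE 0.13). The keratin Krt8 read 9.91 and 10.00 in mixture pools, against 9.74 and 9.77, and its partner Krt18 8.94 and 8.88, against 8.58 and 8.63, so both keratins were higher by 0.20 and 0.31 without passing. The transcription factors Gata3 and Elf5 had log2 fold changes of 0.11 and 0.24.

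Basal and myoepithelial genes had smaller positive differences, with 12 of 13 tested positive of 18 listed and a median of 0.144. The list's centred mean was 0.090 and 0.020 in mixture pools, against -0.056 and -0.094 in the genistein pools. In controls it was 0.083 and 0.085 and with vinclozolin alone 0.217 and 0.087. The controls thus lay between the mixture pools, and the genistein pools were the lowest of PND50. Cnn1, a contractile protein of myoepithelial cells, read 10.65 and 10.63 in mixture pools, against 10.32 and 10.18 (0.39, SE 0.12, limma adjusted p = 0.412), and Myh11 had 0.35. Krt14 did not follow, with 8.78 and 8.65, against 8.74 and 8.64. The median of the luminal list stayed between 0.18 and 0.288 when any of the 4 pools was left out, and that of the basal list between 0.111 and 0.155. Among lists of other tissues and cells in the extract, the median was -0.13 for white adipocytes, -0.603 for skeletal muscle (-0.0383 without mixture pool 2), -0.0577 for endothelium, -0.153 for macrophages, 0.0278 for epidermis and hair follicle, and 0.0757 for T and natural killer cells. The part of these tissues in the luminal values was not tested. With a muscle score in the fit the luminal median was 0.233.

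Of the milk genes there was no common direction. Of 23 tested, 13 were positive and 10 negative, with a median of 0.064 that turned to -0.0142 with a filter at the 50th percentile, to -0.0349 without genistein pool 2 and to -0.0188 without mixture pool 1. Lalba, which encodes alpha-lactalbumin of lactose synthesis, read 12.59 and 12.72 in mixture pools, against 12.31 and 12.15 (0.43, SE 0.12, limma adjusted p = 0.38). The milk fat globule proteins Muc15 and Btn1a1 had 0.43 and 0.37, both without overlap. The caseins did not separate the groups. Csn2, which encodes beta-casein, read 9.07 and 7.91 in mixture pools, against 9.88 and 8.09 in the genistein pools, with more spread within each group than between them, and Csn1s1 read 12.98 and 12.96, against 13.03 and 12.74. Wap, whey acidic protein, read 8.56 and 8.47, against 8.68 and 7.79. None of the 23 passed.

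**Figure D3:**
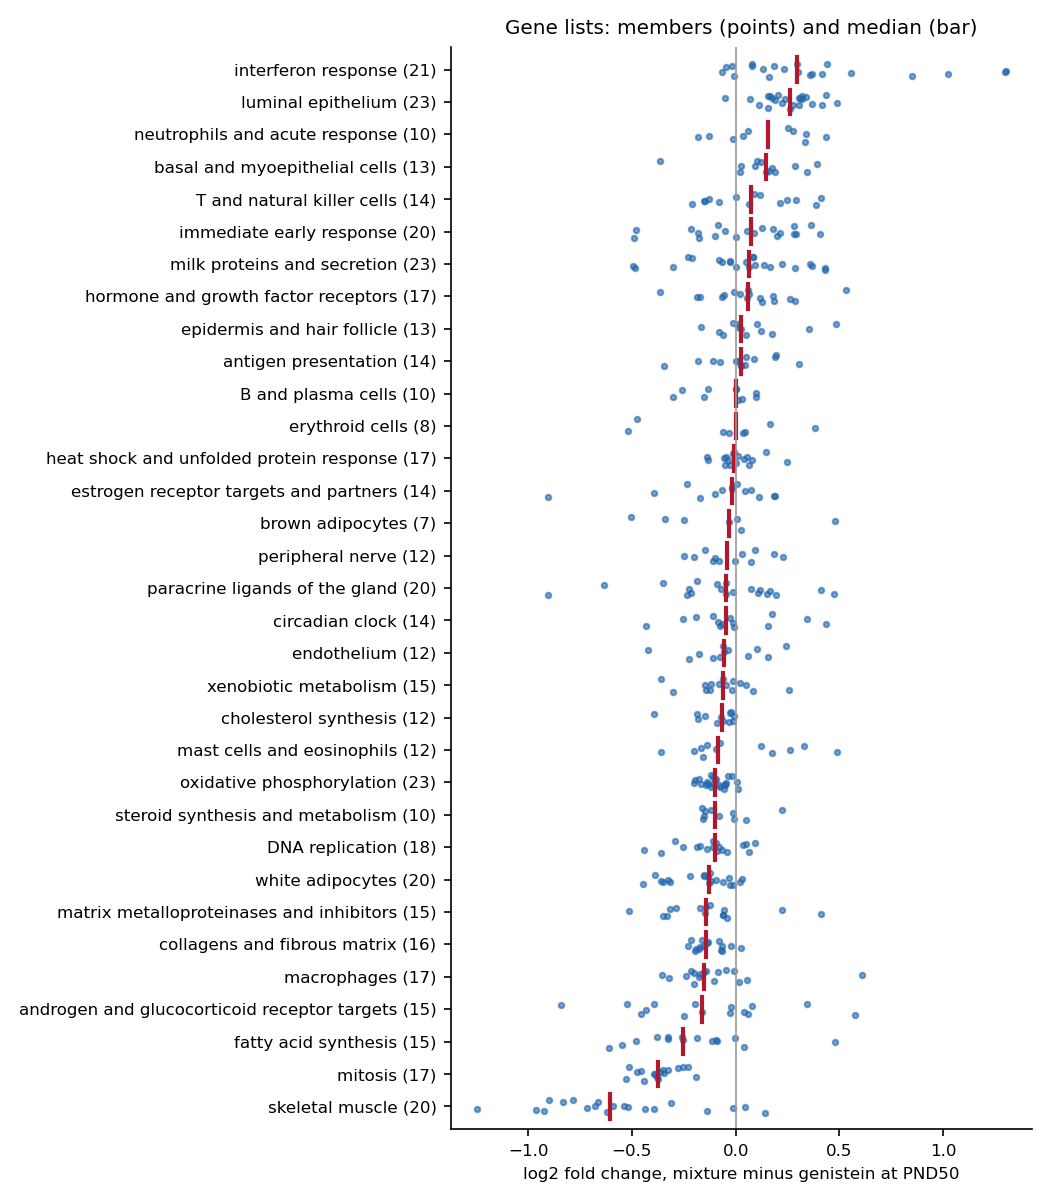
Log2 fold change of mixture over genistein at PND50 for each tested gene (points) of 33 lists, sorted by the list median (bars), with the number of genes in brackets. The interferon (0.297) and luminal (0.263) medians are the highest, and those of mitosis (-0.375) and skeletal muscle (-0.603) the lowest.

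Genes of cell division had negative differences throughout. All 17 mitosis genes tested of 22 listed had negative log2 fold changes, from -0.189 to -0.528, and in 16 both mixture pools were below both genistein pools, which was so for 23.9% of all genes. The median was -0.375, and it lay between -0.449 and -0.327 with any of the 4 pools left out, but no member passed. Kif11, a spindle motor, read 6.94 and 6.98 in mixture pools, against 7.39 and 7.44 in the genistein pools (-0.46, SE 0.20, limma adjusted p = 0.576). Aurkb, a kinase of chromosome segregation, read 7.01 and 6.95, against 7.41 and 7.58 (-0.52, SE 0.26), and Tpx2, a spindle factor, 8.28 and 8.19, against 8.71 and 8.72 (-0.48, SE 0.25).

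The standard error of a gene comes from all 8 groups, and some of them varied more than these 4 pools. Cdc20, an activator of the anaphase-promoting complex, read 7.92 and 7.88 in mixture pools, against 8.27 and 8.41 in the genistein pools, while the control pools read 8.16 and 8.89 (-0.44, SE 0.24, limma adjusted p = 0.643). The mean of the 17 genes, each centred on its mean over all 16 pools, was -0.73 and -0.824 in mixture pools, against -0.452 and -0.361 in the genistein pools, and -0.631 and 0.085 in the control pools. Control pool 1 was therefore lower than both genistein pools and control pool 2 higher. DNA replication genes were negative in 14 of 18, with a median of -0.101, and Uhrf1 and Ccne1, which act in methylation upkeep and entry into S phase, had -0.44 and -0.29.

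Upstream sequences of 1 gene each are shown for the mitosis and interferon lists, whose members had mostly 1 sign. Cdc20, at chr5:137255800-137256049 on the minus strand, shows in capitals the cell cycle homology region, TTTGAA, starting 51 bases before the start. This motif is in 18.1% of all windows and in those of 10 of 15 mitosis genes that have one, and the CCAAT box is in 37.7% of all and in 12 of the 15. Cxcl10, at chr14:15988816-15989065 on the plus strand, shows the interferon-stimulated response element, searched as GAAA followed after any 2 bases by GAAA, starting 243 bases before the start. That motif is in 3.77% of all windows and in 8 of 15 interferon genes.
Cdc20: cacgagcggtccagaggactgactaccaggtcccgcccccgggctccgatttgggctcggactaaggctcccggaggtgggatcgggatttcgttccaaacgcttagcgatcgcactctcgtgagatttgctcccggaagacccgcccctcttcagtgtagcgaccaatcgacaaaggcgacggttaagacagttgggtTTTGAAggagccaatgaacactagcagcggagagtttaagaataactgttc
Cxcl10: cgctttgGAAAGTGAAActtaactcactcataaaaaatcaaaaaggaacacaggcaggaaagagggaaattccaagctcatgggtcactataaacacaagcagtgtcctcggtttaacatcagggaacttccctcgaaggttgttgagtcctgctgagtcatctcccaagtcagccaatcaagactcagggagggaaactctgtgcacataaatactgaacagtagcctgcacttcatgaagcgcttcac
The lists were made of genes known to share these pathways, and the motif counts describe those genes and not this comparison.

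Interferon response genes had a positive median, 0.297, that rested on 1 pool. Of 21 tested of 22 listed, 17 were positive, where 45% of all genes were, and 7 were higher without overlap, where 17.4% of all genes were. Cxcl10, a chemokine that draws T cells, read 8.84 and 10.24 in mixture pools, against 8.29 and 8.19 in the genistein pools (1.30, SE 0.45, limma adjusted p = 0.446). Mx2, an antiviral GTPase, read 8.45 and 9.79, against 7.77 and 7.88 (1.30, SE 0.39, limma adjusted p = 0.404). For both, mixture pool 2 was far above mixture pool 1, which was itself above the genistein pools. Cxcl11 and Herc6 had log2 fold changes of 0.85 and 0.55 with the same order of the pools. The list's centred mean was 0.145 and 0.792 in mixture pools, against 0.125 and 0.056 in the genistein pools. Without mixture pool 2 its median was -0.0165, and without mixture pool 1 it was 0.56.

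Other immune lists had smaller medians. Of 17 macrophage genes tested, 14 were negative, with a median of -0.153, and 9 were lower without overlap, which was so for 23.9% of all genes. C1qc, a complement component, read 9.44 and 9.48 in mixture pools, against 9.78 and 9.78 (-0.32, SE 0.12), and Cd68, a lysosomal protein, 9.66 and 9.50, against 9.91 and 9.96 (-0.35, SE 0.16). Cd14 went the other way within this list (0.61). T and natural killer cell genes had 8 positive and 6 negative changes and a median of 0.0757, and Gzma and Klrd1, genes of cytotoxic cells, had 0.41 and 0.39. Cd3e, part of the T cell receptor, read 7.02 and 7.25, against 7.04 and 6.80 with genistein. The 10 B and plasma cell genes had a median of 0.00176, and Cd79b read 7.26 and 7.08, against 7.15 and 7.17. The neutrophil and acute response list had a median of 0.157, with Ccl2 at 0.44 and Lcn2, a siderophore-binding protein of epithelium and neutrophils, at 0.34. None of these genes passed.

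Connective tissue genes had small negative differences. Of 16 collagen and matrix genes tested of 20 listed, 15 were negative, where 55% of all genes were, and 12 were lower without overlap, where 23.9% of all genes were. The median was -0.144. The list's centred mean was -0.142 and -0.095 in mixture pools, against -0.042 and 0.059 in the genistein pools. In controls it was -0.120 and -0.076 and with vinclozolin alone -0.012 and -0.124, so the controls lay beside the mixture. Fn1, fibronectin, read 12.77 and 12.72 in mixture pools, against 12.86 and 13.02 in the genistein pools (-0.19, SE 0.07, limma adjusted p = 0.504), and Col3a1 had -0.22. Matrix metalloproteinases and their inhibitors were negative in 13 of 15 (median -0.143). Mmp14, a membrane-bound collagenase, read 11.31 and 11.11, against 11.45 and 11.67 (-0.35, SE 0.09, limma adjusted p = 0.376), and Timp1, an inhibitor of these enzymes, had -0.33. Axin2, a feedback inhibitor that Wnt signalling induces, was singled out after its values were seen: it read 7.70 and 7.70 in mixture pools, against 8.19 and 8.15 in the genistein pools. The vinclozolin pools read 7.69 and 7.89 and the controls 7.76 and 7.84, so for Axin2 the genistein pools were the ones apart (-0.47, SE 0.08, limma adjusted p = 0.201).

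Fat and energy genes had mostly negative differences. White adipocyte genes were negative in 18 of 20 tested (median -0.13), of which 8 were without overlap, beside 23.9% of all genes. Adipoq, adiponectin, overlapped between the groups, at 12.72 and 12.59 in mixture pools, against 12.60 and 12.73, and Lep, leptin, read 9.01 and 8.22, against 8.82 and 9.14. Gpd1, which makes glycerol phosphate for triglycerides, read 11.88 and 11.45, against 12.06 and 12.16 (-0.45, SE 0.23), and Lpin1, a phosphatidate phosphatase, had -0.39. Fatty acid synthesis genes were negative in 13 of 15 (median -0.253). Acly, which supplies acetyl-CoA, read 10.79 and 10.35 in mixture pools, against 11.32 and 11.04 (-0.61, SE 0.40), and the desaturase Scd2 10.17 and 10.18, against 10.93 and 10.51 (-0.55, SE 0.19, limma adjusted p = 0.451). Acacb, whose product restrains fatty acid burning, was 1 of the 2 positive genes, with 0.48. The fatty acid synthesis median shrank to -0.0701 without mixture pool 2 and was -0.335 without mixture pool 1, and the white adipocyte median was -0.0368 and -0.207 in the same fits.

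All 12 cholesterol synthesis genes were negative, but by little (median -0.0668), with Insig1, a sterol sensor, at -0.39. Oxidative phosphorylation genes were negative in 21 of 23 (median -0.0974), with Sdhb at -0.20 and Ndufv2 at -0.17. Skeletal muscle genes had the lowest median, -0.603, with 18 of 20 negative and 2 lower without overlap, a smaller share than the 23.9% of all genes. Myl1, a myosin light chain of fast muscle, read 9.91 and 7.14 in mixture pools, against 9.38 and 10.16 in the genistein pools, so mixture pool 1 was between the genistein pools and mixture pool 2 below them. The list's centred mean was -0.814 and -1.827 in mixture pools, against -1.07 and -0.464 in the genistein pools, and its median was -0.0383 without mixture pool 2 and -1.22 without mixture pool 1. None of the genes of these lists passed.

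**Figure D4:**
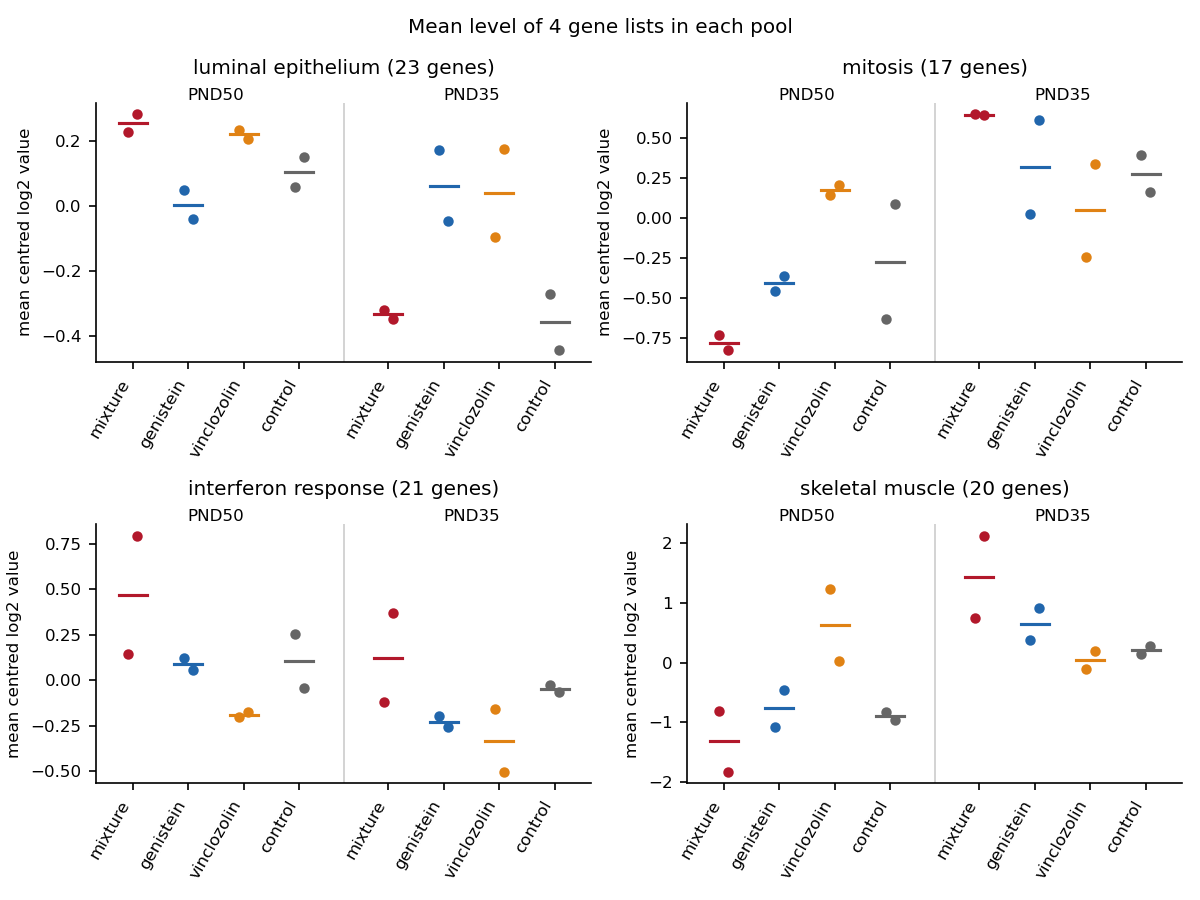
Mean of the centred log2 values of 4 gene lists in each pool (points) with the group mean (bars), by age and group. At PND50 the mixture pools are above the genistein pools for luminal genes and below them for mitosis genes, while for interferon and muscle genes mixture pool 2 (0.792 and -1.827) lies far from mixture pool 1 (0.145 and -0.814).

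The contrast of vinclozolin alone against untreated controls at PND50 asks what vinclozolin did without genistein, in 4 pools that the first comparison does not use. No gene passed there (0%, smallest limma adjusted p 0.798, 713 at an unadjusted p under 0.05), and over all genes the log2 fold changes of both contrasts had a Pearson correlation of -0.0621 and a Spearman correlation of 0.0481. These are over 11796 genes of the same arrays, which are not independent replicates. Slc5a8 had a log2 fold change of 1.42 for vinclozolin added to genistein and 0.31 for vinclozolin alone. Cytip had 0.86 for the addition and -0.02 for vinclozolin alone, and Met 0.53 and 0.04. Of the 13 higher genes, 8 were positive and 5 negative with vinclozolin alone, and of the 12 lower genes 3 were positive and 9 negative. Over all genes 42.7% were positive and 57.3% negative in that contrast.

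The lists differed in how far the contrasts matched. Luminal genes, positive in 22 of 23 for the addition, were positive in 20 with vinclozolin alone (median 0.134), where 42.7% of all genes were positive. Mitosis genes were opposite: all 17 were negative for the addition (median -0.375) and positive with vinclozolin alone (median 0.463), 8 of them without overlap, which was so for 14.9% of all genes. Their centred mean was 0.142 and 0.205 with vinclozolin alone, against -0.631 and 0.085 in controls, so the gap rested mostly on control pool 1. Kif11 read 8.10 and 8.05 with vinclozolin alone, against 7.21 and 7.83 in controls. Interferon genes, positive in 17 of 21 for the addition, were negative in 20 with vinclozolin alone (median -0.23), where 57.3% of all genes were negative. Skeletal muscle genes had the widest gap: 18 of 20 were negative for the addition (median -0.603) and all 20 positive with vinclozolin alone (median 1.75), 17 without overlap. Their median interaction was -2.44. The muscle list's centred mean was 1.229 and 0.021 with vinclozolin alone, against -0.82 and -0.964 in controls. The part of muscle in the other lists was not tested. The difference between the contrasts was tested gene by gene as an interaction, and none passed (0%, smallest limma adjusted p 0.554, 768 at an unadjusted p under 0.05). The smallest p was that of C9h2orf72, which read 6.44 and 6.67 in mixture pools, against 6.96 and 6.96 in the genistein pools, and 7.54 and 7.79 with vinclozolin alone, against 6.83 and 6.88 in controls (interaction -1.21, SE 0.19). Met had an interaction of 0.49 (SE 0.09), Cytip 0.88 (SE 0.17) and Slc5a8 1.11 (SE 0.27), all with a limma adjusted p of 0.755.

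The same contrast at PND35 used different pools and gave the opposite sign for many of the genes above. No gene passed at PND35 (0%, smallest limma adjusted p 0.214, 1417 at an unadjusted p under 0.05), and over the 11796 genes its log2 fold changes correlated with those at PND50 at -0.258 (Pearson) and -0.251 (Spearman). Slc5a8 had a log2 fold change of 1.42 at PND50 and -0.81 at PND35, where it read 7.75 and 7.25 in mixture pools, against 8.66 and 7.96 in the genistein pools. Cytip had 0.86 at PND50 and -0.31 at PND35, where it read 7.52 and 7.51 in mixture pools, against 7.96 and 7.69. Met had 0.53 and -0.15, and its PND35 pools read 8.96 and 8.97 with the mixture, against 9.10 and 9.13 with genistein. For all 3 the mixture pools were above the genistein pools at PND50 and below them at PND35. Of the 13 higher genes at PND50, 12 were negative at PND35, and of the 12 lower genes 6 were positive and 6 negative. Over all genes 40% were positive and 60% negative at PND35.

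The difference between the ages was tested as an interaction, PND50 minus PND35, and 4 genes passed, all positive (0.0339%), with none negative (0%) and 1514 genes at an unadjusted p under 0.05. Slc5a8 had the largest difference, 2.23 (SE 0.27, limma adjusted p = 0.0384), followed by Cytip with 1.17 (SE 0.17, limma adjusted p = 0.0458), Podxl with 0.97 (SE 0.13, limma adjusted p = 0.0458) and Met with 0.68 (SE 0.09, limma adjusted p = 0.0384). Slc5a8, Cytip and Met also passed at PND50 alone, and since the PND50 pools enter both tests this is not a separate finding. Podxl, a sialomucin of the apical cell surface, was not among the passing genes at PND50, where it read 11.30 and 11.36 in mixture pools, against 10.88 and 10.73 in the genistein pools (0.53, SE 0.09, limma adjusted p = 0.201). At PND35 it read 10.11 and 10.17, against 10.73 and 10.42, so its groups were without overlap in opposite directions at the ages.

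Fap, a serine protease of activated fibroblasts, had the smallest p among negative differences and just missed (-0.74, SE 0.11, limma adjusted p = 0.0501). It read 8.24 and 8.17 in mixture pools at PND50, against 8.52 and 8.62 in the genistein pools, and 8.86 and 8.94 at PND35, against 8.49 and 8.57. Sh2b2 and Rasa3, an adaptor of receptor kinases and a regulator of Ras, had -0.72 and -0.62 without passing. Reg3b (2.37) and Vtcn1 (1.47) had large positive differences with limma adjusted p-values of 0.0716. The count of 4 fell to 0 with either a muscle or a lymphocyte score in the fit, and it was 153 without genistein PND35 pool 2, 25 without genistein PND50 pool 1, and 0 when either PND50 pool of the mixture was left out.

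Several lists had opposite signs at the ages. Of the 23 luminal genes, 22 were positive at PND50 and all were negative at PND35 (median -0.408), 20 of them without overlap, where 60% of all genes were negative and 28.1% were lower without overlap, and no luminal gene passed the test of the difference. All 17 mitosis genes were negative at PND50 and positive at PND35 (median 0.318), 6 without overlap at PND35, where 40% of all genes were positive and 15.5% were higher without overlap, and again none passed. Their centred mean was 0.646 and 0.64 in the mixture pools at PND35, against 0.024 and 0.611 in the genistein pools, so the second genistein pool was close to the mixture. For the luminal list it was -0.319 and -0.349, against 0.173 and -0.047, and the controls at PND35, with -0.271 and -0.444, lay beside the mixture. Collagen genes had medians of -0.144 at PND50 and 0.0912 at PND35, with 14 of 16 positive at PND35, and macrophage genes had -0.153 and 0.0837, with 13 of 17 positive at PND35. The interferon list kept its sign, with 20 of 21 positive at PND35 (median 0.224), and there too mixture pool 2 was the high one (-0.121 and 0.37, against -0.194 and -0.258 with genistein). Muscle genes had medians of -0.603 at PND50 and 0.706 at PND35. All 20 were positive at PND35, 4 of them higher without overlap, which was so for 15.5% of all genes. Their centred mean at PND35 was 0.746 and 2.126 in mixture pools, against 0.382 and 0.926 with genistein, so mixture pool 1 lay between the genistein pools. At PND50 too the muscle difference rested mostly on mixture pool 2, as given above. With a muscle score in the fit no gene passed the test of the difference, and the part of muscle in the lists was not tested.

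**Figure D5:**
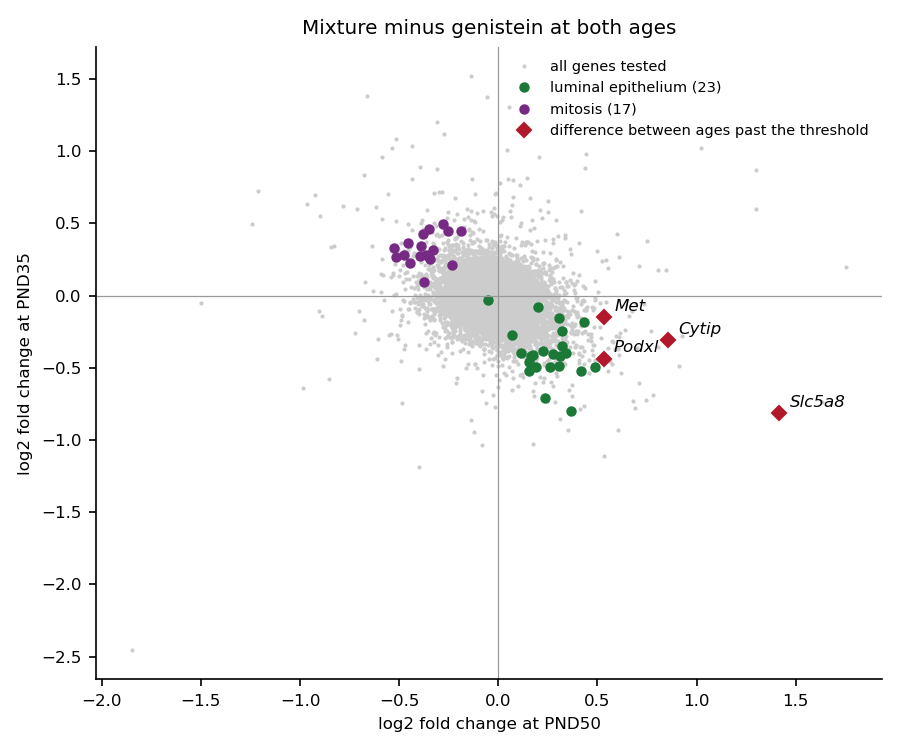
Log2 fold change of mixture over genistein at PND50 (x axis) and PND35 (y axis) for all genes tested, with luminal and mitosis genes and the 4 genes whose difference between the ages passed. Luminal genes (medians 0.263 and -0.408) lie in the lower right and mitosis genes (medians -0.375 and 0.318) in the upper left.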

How the data were processed

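RNA from mammary glands was hybridised to 16 Affymetrix arrays, 2 for each of 8 groups. The table deposited by the authors gives 1 value for each of 27342 probe sets, between 2.2 and 13.9, read here as log2 intensity from that range. How the authors corrected, normalized and summarized the signals, and the log base, is not given in the sources used here. Array by array, medians ranged from 7.05 to 7.145, and the values were not normalized again. The platform annotation gave 15097 probe sets exactly 1 gene symbol and 323 several, and 11922 are unnamed here. Of the 15097, 15067 matched a RefSeq gene (GRCr8, used for names and promoter windows) and 30 kept the annotation's symbol. For the 499 of 14324 symbols with several probe sets the one with the highest mean was used. Genes whose mean was under 5.661, the 25th percentile over probe sets, were left out, and 11796 remained.

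Differences were fitted with limma 3.58.1 in R 4.3.3 (lmFit and eBayes), with 1 mean per group over all 16 arrays and 8 residual degrees of freedom, for 5 contrasts. Tests were two-sided with Benjamini-Hochberg adjustment over the 11796 genes and a threshold of 0.05. A muscle and a lymphocyte score, other filters and scalings, a replicate block and pools left out in turn were tried as alternatives. Replicate numbers did not pair the pools. Python 3.11.15 with matplotlib 3.10.9 drew the figures.

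Members, the 33 gene lists (626 genes, 531 named on the array, 494 tested) and the tests were chosen with earlier results of these data known. Gene lists are described by counts and medians, without a test, and the log2 fold change is always that of the first-named group over the second. The text names genes past the threshold without overlap of pools; where fewer than 5 passed in a direction, the 12 with the smallest p among those changed at least 1.5-fold without overlap, which were 10 on the higher side; up to 4 members per list by p; a fixed panel; and the extremes of each interaction. Axin2, Podxl at PND50, Hgf, Reg3g, Or8b51 and Spt1 were added after their values were seen.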

Additional observations from a re-analysis of the deposited data

Results flagged for a closer look

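For 4 genes the contrast of mixture and genistein differed between PND50 and PND35 by a limma test of the difference itself. Slc5a8 differed by 2.23 on the log2 scale (SE 0.27, adjusted p = 0.0384), with both mixture pools above both genistein pools at PND50 and below them at PND35. Cytip differed by 1.17 (SE 0.17, limma adjusted p = 0.0458), Podxl by 0.97 (SE 0.13, limma adjusted p = 0.0458) and Met by 0.68 (SE 0.09, limma adjusted p = 0.0384). As for Slc5a8, both mixture pools of each gene were above both genistein pools at PND50 and below them at PND35. Over the alternative fits these 4 did not always pass, and with a muscle score or a lymphocyte score in the fit none of them did. The cause was not tested.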

How the results depend on the processing

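For the mixture against genistein at PND50, 3 genes passed. The count was 5 with no filter on dim genes, 0 with all probe sets tested, 1 with the arrays of PND50 only or of the groups compared only (Slc5a8 in both), 0 with a muscle score in the fit, 0 at a threshold of 0.01, and 1 (Met) without both vinclozolin PND35 pools, an alternative chosen after seeing the data. It was 0 to 4 with 1 pool of the groups not compared left out in turn. A replicate block left 2 of the 3 genes (Met and Slc5a8). The deviations of same-numbered pools correlated at -0.23 between mixture and genistein at PND50, 0.18 at PND35, and 0.177 between vinclozolin and control at PND50, and nothing in the labels ties equal numbers together, so they were not taken as pairs. For vinclozolin against control at PND50 and for the interaction with genistein, the replicate block gave 1 gene each in place of 0 (C9h2orf72). Left-out pools gave 0 in the contrast of vinclozolin and control, 0 to 78 in the PND35 contrast (78 without genistein PND35 pool 2) and 0 to 1 in the interaction with genistein.

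For the difference between ages, 4 genes passed. The count was 2 with median centring, 0 with all probe sets, 0 with the groups compared only, 0 with a muscle score, 0 with a lymphocyte score, 41 at a threshold of 0.1, 0 at 0.01, 7 without both vinclozolin PND35 pools, and 0 to 153 with 1 pool left out. The replicate block gave 4, of which Met, Podxl and Slc5a8 were among the 4 and Ttc39a was not.

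Of 122 single-gene results, 21 values under an alternative changed sign, all of genes that did not pass. Adipoq turned to 0.01683 with quantile normalization, Cd79b to -0.01799 and Myh4 to 0.321 with a muscle score. With 1 of the 4 pools left out, the log2 fold change ranged from -2.631 to 0.1424 for Myl1, -1.303 to 0.4329 for Myh4, -1.238 to 0.05976 for Acta1, -1.389 to 0.4029 for Csn2, -0.1549 to 0.0977 for Csn3, -0.06205 to 0.2285 for Csn1s1, -0.1624 to 0.7301 for Wap, -5e-04 to 0.3721 for Esr1, -0.04259 to 0.08544 for Krt14, -0.08065 to 0.05195 for Adipoq, -0.7564 to 0.03231 for Lep, -0.07632 to 0.1003 for Cd79b and -3.78 to 0.08552 for Spt1. The cause was not tested. With 2 pools in a group, only differences well above the median standard error of 0.0941 could pass, and dim genes are judged by value alone.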

Other observations

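Spt1, a salivary protein gene, stood apart in 1 pool. It read 6.83 and 6.67 in mixture pools at PND50, against 6.66 and 10.53 in the genistein pools, so genistein pool 2 was far above genistein pool 1 (log2 fold change -1.85, SE 0.83, limma adjusted p = 0.58). At PND35 it read 6.17 and 5.67 in mixture pools, against 8.45 and 8.31 in the genistein pools, without overlap (-2.46). Without genistein PND50 pool 1 the PND50 difference was -3.78, which rests on genistein pool 2 alone, and without genistein PND50 pool 2 it was 0.08552.

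Genes of red cells, nerve and clock had medians of 1e-05, -0.0404 and -0.0479 at PND50, beside -0.0138 over all genes. Of 12 nerve genes tested 5 were positive and 7 negative, and of 14 clock genes 4 were positive and 10 negative, where 55% of all genes were negative. Hbb, beta-globin, read 11.06 and 10.44 in mixture pools, against 11.07 and 11.47 in the genistein pools, and Alas2, the first enzyme of heme synthesis in red cells, 8.54 and 8.19, against 8.72 and 8.97. Both were lower without overlap by 0.52 and 0.48 and did not pass, and the 8 tested genes of the red cell list had 4 positive and 4 negative changes. Per1, a clock gene that glucocorticoids induce, read 9.10 and 9.11 in mixture pools, against 9.73 and 9.34 in the genistein pools (-0.43, SE 0.20, limma adjusted p = 0.585). Gstm1, a glutathione transferase, read 10.73 and 10.66, against 10.93 and 11.07 (-0.30, SE 0.07, limma adjusted p = 0.33). Slc4a4, a sodium bicarbonate cotransporter, read 9.73 and 9.73 in mixture pools, against 9.30 and 9.19 in the genistein pools, and 8.97 and 9.04 with vinclozolin alone, against 9.07 and 9.12 in controls (0.49, SE 0.09, limma adjusted p = 0.201). Slc4a4 was singled out after its values were seen.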
